A study of Mus musculus with 141 samples.

Results

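Keratins are the intermediate filament proteins of epithelial cells, and they are the subject of this account of gene expression in inguinal white adipose tissue (iWAT), the subcutaneous fat pad of the mouse groin. The keratin genes were taken as all protein-coding genes whose symbol is Krt followed by digits only. This rule found 49 genes among the 36558 listed, of which 35935 could be paired with a symbol. Expression was measured by RNA-seq in inbred mice of the Hybrid Mouse Diversity Panel (HMDP). Females gave 67 libraries and males 74, each from a different strain of that sex, and 59 of the 82 strains are represented by both. All mice, in every group, ate standard chow until 8 weeks of age and then, for 8 weeks, a diet rich in fat and sucrose (HF/HS), and were fasted for 4 h before collection. The strains fall into the classical inbred strains (21 female and 23 male libraries) and 4 families of recombinant inbred strains, which are lines bred from a cross of 2 inbred parents. These families are BXD (32 and 34), AXB/BXA (9 and 11), BXH (2 and 3) and CXB (3 and 3). The BXD strain BXD24/TyJ-Cep290<rd16>/J, with a female and a male library, carries by its name the rd16 allele of Cep290. Since the labels give 1 library per strain and sex, the spread within a strain and sex cannot be measured here, and strains serve as the replicates. AXB19, AXB19a and AXB19b were counted as separate strains, although their names point to a shared origin. Whether a library holds RNA of 1 mouse or of several is not given in the sources used here.

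A keratin filament is built from pairs of 1 type I and 1 type II keratin, so the genes are expressed in partners. Simple epithelia, including the luminal cells of the mammary gland, express Krt8 with Krt18, together with Krt7 and Krt19. Basal cells of stratified epithelia and the myoepithelial cells of the mammary gland express Krt5 with Krt14, and the suprabasal layers of the epidermis express Krt1 with Krt10. Further keratins build the inner root sheath and the shaft of the hair. The mouse mammary glands lie within subcutaneous fat pads, and the inguinal pad of a female mouse holds mammary ducts, whereas adipocytes themselves use vimentin as their main cytoplasmic intermediate filament. Of the 49 genes, 26 encode type I and 23 type II keratins. The type I genes lie on chromosome 11 except Krt18, which lies beside its partner Krt8 in the type II cluster on chromosome 15. Coordinates are those of GRCm38. Krt8 spans chr15:101996698-102004482 on the minus strand and Krt18 spans chr15:102028180-102032027 on the plus strand. Krt5 spans chr15:101707070-101712898 and Krt14 spans chr11:100203162-100207548, both on the minus strand.

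Sequence before a transcription start is shown for partner genes whose levels moved together, and for 3 genes with other patterns. It is the 120 bases before a start that RefSeq gives in GRCm38.p6, written 5′ to 3′ on the strand of the gene. Capitals mark matches to the motifs searched, and positions count back from the start.
Krt8 (chr15:102004343-102004462, minus strand): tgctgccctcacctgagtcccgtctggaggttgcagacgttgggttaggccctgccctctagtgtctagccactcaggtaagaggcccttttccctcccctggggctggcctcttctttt
Krt18 (chr15:102028096-102028215, plus strand): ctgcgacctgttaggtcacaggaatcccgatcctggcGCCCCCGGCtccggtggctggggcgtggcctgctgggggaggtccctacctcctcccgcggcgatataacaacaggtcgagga
Krt5 (chr15:101712906-101713025, minus strand): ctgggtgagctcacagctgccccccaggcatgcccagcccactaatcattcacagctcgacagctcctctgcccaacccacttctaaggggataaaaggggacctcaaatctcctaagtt
Krt14 (chr11:100206031-100206150, minus strand): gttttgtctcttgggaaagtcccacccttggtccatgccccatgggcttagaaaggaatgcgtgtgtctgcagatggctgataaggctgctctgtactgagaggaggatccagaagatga
Krt10 (chr11:99389365-99389484, minus strand): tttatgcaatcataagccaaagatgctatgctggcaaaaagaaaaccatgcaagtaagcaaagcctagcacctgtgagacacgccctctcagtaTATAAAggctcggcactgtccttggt
Krt20 (chr11:99438154-99438273, minus strand): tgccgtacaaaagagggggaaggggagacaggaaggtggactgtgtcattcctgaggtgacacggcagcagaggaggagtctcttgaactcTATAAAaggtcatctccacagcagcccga
Krt79 (chr15:101940325-101940444, minus strand): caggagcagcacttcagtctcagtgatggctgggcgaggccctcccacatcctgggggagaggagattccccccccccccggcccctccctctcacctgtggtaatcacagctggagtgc

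In these windows the TATA box letters TATAAA stood at -26 to -21 in Krt10 and at -29 to -24 in Krt20, and the AP-2 letters GCCNNNGGC stood at -83 to -75 in Krt18. None of the motifs searched was found in the printed windows of Krt8, Krt5, Krt14 and Krt79. The windows of Krt8 and Krt14 lie inside the gene spans given above, and that of Krt18 lies partly inside. The span of Krt14 reaches 100207548, far upstream of its window, so the absence of a motif there does not describe the promoter at the outer end of that gene. Over the 250 bases before the start, on either strand, TATAAA was present in 16 of the 35 keratin genes that have a promoter entry and in 12.4% of 32851 promoters. GCCNNNGGC was present in 5 of the 35 genes and in 13.7% of all promoters, and the GC box GGGCGG in 2 of the 35 genes and in 32.7% of all promoters. The AP-1 letters TGANTCA were present in 1 of the 35 genes and in 6.75% of all promoters. The full palindromes of the oestrogen response element and of the androgen response element, searched with any bases in the spacer, were in none of the 35 genes and in 0.0639% and 0.00913% of all promoters. A match describes letters in a window and is not a measured binding site.

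Female libraries held between 6269154 and 39543043 estimated counts and male libraries between 11747373 and 78562648, with a median of 30233245 over all. At that median 3 counts, taken as the floor of detection, equal 0.0992 CPM, which are counts scaled to a common library total. The labels were checked with the summed level of 4 Y-linked genes. In 65 female libraries this sum was 5.66 to 35.7 CPM and in 73 male libraries 164 to 581 CPM. The sums of the libraries labelled BXD69/RwwJ female (372 CPM), BXD34/TyJ female (794 CPM) and NZW/LacJ male (9.38 CPM) lay on the side of the other sex, and these 3 are called the libraries against their label. In BXD34/TyJ female, the shallowest library, the 4 genes disagreed. Ddx3y was at 2.23 CPM, within the range of the other female libraries (0.0328 to 2.41), and Eif2s3y at 3.67 CPM, above them (at most 1.32) but far below the males (at least 24.6). Kdm5d at 86.5 CPM and Uty at 701 CPM exceeded every male library (at most 81.3 and 56.3), so the sex of this library is unclear. Neither BXD library belongs to a strain with both sexes, so only NZW/LacJ enters the paired comparison. Adipocyte content was described with 5 markers, by their summed TPM (a level corrected for transcript length and library total). Its median was 31255 in female (5445 to 61550) and 41395 in male libraries (12048 to 63720). Which fat pad a library came from was not checked. Summed skeletal muscle markers reached 13603.5 TPM in BXD79/RwwJ female (female median 17.7). Summed lymph node markers reached 2107 TPM in AXB12/PgnJ female (female median 62.7). In bulk tissue, fewer cells of a type and less RNA per cell cannot be told apart.

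Keratin transcripts differed between the sexes in amount and in kind. The summed TPM of all keratin genes had a median of 490 in female libraries (29.7 to 1462) and of 36.2 in male libraries (14.2 to 514). The lowest female sum was that of BXD34/TyJ and the highest male sum that of NZW/LacJ. Without the libraries against their label the lowest female sum was 110.3 in BXD44/RwwJ and the highest male sum 291 in PL/J, followed by 106.3 in BXD60/RwwJ. Simple and luminal keratins made up a median of 83.9% of the keratin TPM of a female library and 7.87% of that of a male library. Basal keratins made up 9.1% and 0.153%. Suprabasal skin keratins made up 3.61% in females and 75.5% in males, and among them Krt79 alone had a median share of 47.9% in males. In female libraries the most abundant keratins by median TPM were Krt19 (159), Krt18 (150) and Krt8 (72), whose ranges overlapped widely. In male libraries they were Krt79 (15.8), Krt10 (5.34), Krt80 (3.38) and Krt222 (3.10), again with overlapping ranges.

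**Figure D1:**
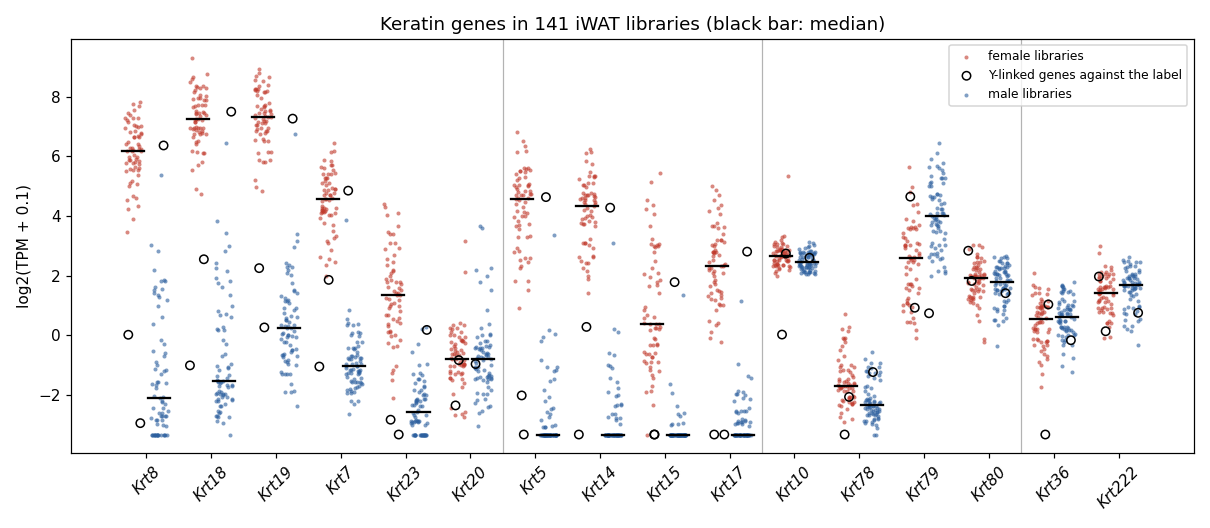
Level of the 16 tested keratin genes as log2(TPM + 0.1) in 67 female (red) and 74 male (blue) libraries, 1 point per library, with the median as a black bar and open circles for the 3 libraries whose Y-linked genes go against the label. Vertical lines separate simple and luminal, basal, suprabasal skin and remaining keratins. Luminal and basal keratins other than Krt20 are higher in females than in most males. Of these keratins, 2 male libraries, NZW/LacJ and PL/J, lie at the female level and BXD69/RwwJ female lies at the male level. Krt10, Krt20, Krt80 and Krt222 overlap between the sexes.

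Of the 49 keratin genes, 16 passed the filter on low counts and were tested between the sexes in the 59 paired strains, with a model of strain and sex fitted to all genes (edgeR's quasi-likelihood test). In females 11 were higher, 1 was lower and 4 did not pass an adjusted p of 0.05. The background is high: of the 16765 genes tested, 28.4% were higher and 29.8% lower in females, with a median log2 fold change (log2FC, female minus male) of 0.01. With library totals in place of TMM scaling the median of all genes moved to 0.12 and the split to 7410 genes higher and 2774 lower, against 4759 and 4988, and the same 12 keratin genes were called with the same directions. Of the keratin genes, 9 luminal and basal keratins had a log2FC from 4.74 to 8.14. Their calls held in every alternative that could test them, but the sizes and the order of the fold changes depended on the fit. Without the strain term the 9 values were 4.13 to 5.35. Over the alternatives Krt8 ranged from 4.76 to 8.81, Krt18 from 4.84 to 8.59, Krt14 from 3.99 to 9.68 and Krt5 from 4.11 on log2(TPM + 1) to 10.4 with DESeq2. Krt5, Krt8, Krt14, Krt15, Krt17, Krt18, Krt20 and Krt23 passed the filter only through their female libraries, Krt78 needed both sexes, and the other 7 passed on male libraries alone. Genes that entered through females and were near the floor in males could hardly be called otherwise. The count of 11 thus cannot be weighed against the share of all genes. Among the 7, Krt7, Krt10 and Krt19 were higher in females, Krt79 was lower, and Krt36, Krt80 and Krt222 did not pass the threshold.

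Among the simple and luminal keratins, 5 of 6 were higher in females, of which Krt8, Krt18 and Krt23 had passed the filter only through female libraries. Krt8, the type II keratin of simple epithelia, ranged from 0.0302 to 227 TPM with a median of 72 in female libraries, and from 0 to 82.1 TPM with a median of 0.135 in male libraries. The 2 lowest female values were those of BXD69/RwwJ (0.0302) and BXD34/TyJ (0.914). The 2 highest male values were those of NZW/LacJ (82.1) and PL/J (41). Without the 3 libraries against their label the lowest female value was 10.9 TPM in BXD24/TyJ-Cep290<rd16>/J, and the highest male value was that of PL/J, so the sexes overlapped. The next male value was 8.09 TPM in AXB5/PgnJ. The log2FC of Krt8 was 7.65 ± 0.45 (SE; edgeR adjusted p = 1.47e-22), with the female library higher in 58 of 59 strains.

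Krt18, the type I partner of Krt8, was higher in the female library of 58 of 59 strains (182 ± 111.4 TPM in females and 5.91 ± 25.8 TPM in males, mean ± SD, n = 59), with a log2FC of 7.94 ± 0.43 (edgeR adjusted p = 1.62e-24). Its male mean is carried by NZW/LacJ (180 TPM) and PL/J (87.9 TPM), whereas the male median was 0.249 TPM. Krt19, the type I keratin without a tail domain, had a median of 159 TPM in females (1.10 to 484) and 1.09 TPM in males (0.0945 to 153), and a log2FC of 6.75 ± 0.30 (edgeR adjusted p = 5.28e-28). Krt7, a type II keratin of ducts, had a median of 23.4 TPM in females (0.385 to 86.5) and 0.392 TPM in males (0.0592 to 28.7), and a log2FC of 4.91 ± 0.21 (edgeR adjusted p = 3.28e-29). Both were above the floor of 3 counts in most male libraries, Krt7 in all 74 and Krt19 in 72. Krt23, a type I keratin of glandular epithelia, had a median of 2.47 TPM in females and 0.0674 TPM in males, and a log2FC of 4.74 ± 0.31 (edgeR adjusted p = 1.64e-20).

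Krt20 stood apart from the other simple keratins. This type I keratin, known from the intestinal lining and from Merkel cells, had nearly equal medians of 0.474 TPM in females (0.0508 to 8.86) and 0.471 TPM in males (0.0223 to 12.7). Its log2FC was 0.06 ± 0.21 (edgeR adjusted p = 0.822), with the female library higher in 34 and lower in 25 of 59 strains. The groups overlapped over nearly their whole range, and the highest values came from single libraries of both sexes, AXB5/PgnJ male (12.7), BXD11/TyJ male (11.9) and C57BLKS/J female (8.86).

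All 4 basal keratins, which had passed the filter only through female libraries, were higher in females. Krt5, the type II keratin of basal cells, ranged from 0 to 111.4 TPM with a median of 23.7 in female libraries and from 0 to 24.7 TPM with a median of 0 in male libraries. It had no count in 47 of 74 male libraries and reached 3 counts in 20. Its log2FC of 8.14 ± 0.44 (edgeR adjusted p = 1.51e-24) came with a higher female library in 58 of 59 strains. Krt14, its type I partner, had a median of 20.2 TPM in females (0 to 75.1) and 0 in males (0 to 19.3), and a log2FC of 8.03 ± 0.41 (edgeR adjusted p = 1.48e-25). Without the libraries against their label the lowest female values were 1.79 TPM of Krt5 and 2.57 TPM of Krt14, and PL/J male lay above them with 10.2 and 8.42 TPM. The other male libraries reached at most 1.02 TPM of Krt5 and 1.06 TPM of Krt14.

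Krt17, a basal keratin of ducts and appendages, had a median of 4.95 TPM in females (0 to 32.1) and 0 in males (0 to 6.89), and a log2FC of 6.89 ± 0.35 (edgeR adjusted p = 1.12e-25). Krt15, a type I keratin of basal cells, had a median of 1.19 TPM in females (0 to 43.4) and 0 in males (0 to 3.34), and a log2FC of 7.22 ± 0.39 (edgeR adjusted p = 2.84e-24). Of the 16 tested keratins Krt15 was the most uneven among females: its 90th percentile was 43.3 times its 10th percentile, against 6.62 times for Krt8 and 1.74 times for Krt10. SM/J female held the highest Krt15 level, 43.4 TPM. Because male libraries were at or near 0 for the basal keratins, the size of these fold changes depends on the small prior count of the fit.

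**Figure D2:**
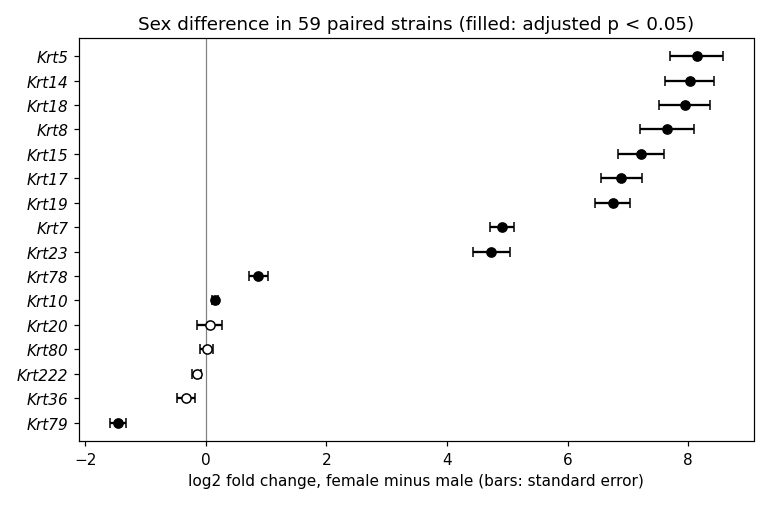
Log2 fold change between the sexes (female minus male) of the 16 tested keratin genes in 59 paired strains, from the edgeR fit of strain and sex, with bars for the standard error. Filled points have an adjusted p under 0.05. The 9 luminal and basal keratins with a change lie between 4.74 and 8.14, Krt78 and Krt10 lie closer to 0, and Krt79 lies at -1.46.

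Skin keratins did not move as a group. Of 9 suprabasal skin keratins, 4 were tested, of which 2 rose, 1 fell and 1 did not pass the test. Krt79, a type II keratin of the sebaceous duct and hair canal, was the one keratin gene lower in females, with a median of 5.90 TPM in females (0.839 to 50.3) and 15.8 TPM in males (1.57 to 87.6). The ranges overlapped, but the female library was lower in 55 of 59 strains, and the log2FC was -1.46 ± 0.14 (edgeR adjusted p = 2.43e-14), a 2.76-fold higher level in males. Krt78, a type II keratin of stratified epithelia, was low in both sexes, with a median of 0.209 TPM in females and 0.0965 TPM in males and a log2FC of 0.87 ± 0.16 (edgeR adjusted p = 6.72e-06).

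Krt10, the type I keratin of the suprabasal epidermis, differed little. Its median was 6.21 TPM in females (0.918 to 40.2) and 5.34 TPM in males (4.02 to 8.72), and its log2FC was 0.16 ± 0.05 (edgeR adjusted p = 0.00445), with the female library higher in 46 of 59 strains. Its partner Krt1 was not tested and had a median of 0.0452 TPM in females and 0 in males, so Krt10 was present in nearly all libraries without its usual partner at a like level. Krt80, a type II keratin of many epithelia, had a log2FC of 0.01 ± 0.11 (edgeR adjusted p = 0.938), a value below 0 without NZW/LacJ, with medians of 3.68 TPM in females and 3.38 TPM in males.

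Krt36, a hair shaft keratin, had medians of 1.38 TPM in females and 1.44 TPM in males and a log2FC of -0.32 ± 0.15 (edgeR adjusted p = 0.0593). Krt222, a short keratin-like gene beside the type I cluster, had medians of 2.59 TPM in females and 3.10 TPM in males and a log2FC of -0.15 ± 0.07 (edgeR adjusted p = 0.0654). Without the strain NZW/LacJ both passed the threshold, Krt36 with a log2FC of -0.35 (edgeR adjusted p = 0.041) and Krt222 with -0.18 (edgeR adjusted p = 0.0281). The log2FC of Krt8 was 7.73 and that of Krt5 8.26 without NZW/LacJ.

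The other 33 keratin genes were too low to be tested. Of these, 27 reached 3 counts in at least 1 library and 6 in none, and Krt76 had no count in any library. The number of libraries with 3 counts was higher in females for 22 genes, higher in males for 3 and equal for 2, although there are more male libraries. The highest-reaching were Krt1 (22.1 TPM) and Krt2 (3.17 TPM), both in LP/J female, and Krt84 (2.72 TPM) in BXD34/TyJ female, where the shallow depth makes 8 counts weigh that much. The second highest Krt1 value among females was 0.226 TPM. None of the 8 inner root sheath keratins and 5 keratins of mucosa and cornea was tested between the sexes, nor were 12 of the 13 hair shaft keratins.

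Several keratin transcripts share sequence with copies, and the kallisto counts can be split between these. Of the 31-base words of Krt8, 36.1% also occur in other genes, mostly in the pseudogene Krt8-ps. The share was 28.2% for Krt14, mostly with Krt16, 15.8% for Krt5 with Krt6a, 15.8% for Krt17 with Krt14 and 11.4% for Krt18 with pseudogenes. Krt20 and Krt23 share none, and Krt19 shares 0.439%. The values of Krt8, Krt14, Krt5, Krt17 and Krt18 are uncertain to that extent. The 4 keratin genes with a letter after the number, Krt6a, Krt6b, Krt33a and Krt33b, were all below the filter.

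Marker genes were compared in the same fit, where 28.4% of all genes tested were higher and 29.8% lower in females. Which genes of this and the following lists passed the filter only through female libraries was not examined. Genes that did so could hardly be called otherwise, so the counts of a list cannot be weighed against these shares. Male medians were 0.0135 TPM for Foxa1 and 0.0294 TPM for Cldn4. All 12 mammary luminal markers rose in females, with Foxa1, a transcription factor of luminal cells, at a log2FC of 7.55 ± 0.43 (edgeR adjusted p = 3.51e-23) and the tight junction gene Cldn4 at 7.25 ± 0.38 (edgeR adjusted p = 7.88e-25). Their summed TPM had a median of 550 in females (3.18 to 4258) and of 6.31 in males (2.04 to 558), with none of the 12 at a median of 0 in either sex. BXD69/RwwJ female held the lowest and NZW/LacJ male the highest of these sums for its label. Without the libraries against their label the lowest female sum was 93.3 and the highest male sum 247 in PL/J, followed by 82.5 in NZB/BlNJ. Of 9 mammary basal and myoepithelial markers 8 rose and 1 did not pass the test, with summed levels of 103.7 to 1431 TPM in females (at least 166.2 without BXD34/TyJ) and 116.2 to 825 in males. Of 12 epidermal markers 5 were tested, of which 3 rose and 1 fell. Lor, Flg, Flg2, Ivl, Lce1a1, Sprr1a and Casp14 were too low to be tested. Serpinb5 rose with a log2FC of 7.22 ± 0.38 (edgeR adjusted p = 7.67e-25). Calml3 rose with 0.85 ± 0.21 (edgeR adjusted p = 0.00043) and Sbsn with 0.48 ± 0.13 (edgeR adjusted p = 0.0011). Krtdap fell with -1.60 ± 0.30 (edgeR adjusted p = 9.4e-06). The summed epidermal level was 11.1 to 105.7 TPM in females and 1.71 to 64.2 in males, and 4 of the 12 markers had a median of 0 in females and 5 in males. The part of these cell types in the keratin values was not tested.

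Of 9 hair follicle and sebaceous markers 5 were tested and 3 rose, led by Msx2 (log2FC 4.68 ± 0.22, edgeR adjusted p = 2.06e-26), with summed levels of 1.34 to 18.8 TPM in females and 1.08 to 11.1 in males (3.05 to 18.8 and 1.08 to 7.07 without the libraries against their label) and 4 markers at a median of 0 in each sex. All 5 adipocyte markers fell in females, with a median log2FC of -0.61. Of all genes tested, 28.4% were higher and 29.8% lower in females. Of 6 lymph node markers 1, Ccl21a, rose (log2FC 1.46 ± 0.62, edgeR adjusted p = 0.0409), of 5 mesothelium markers 2 were tested and 1, Lrrn4, rose (0.45 ± 0.15, edgeR adjusted p = 0.00766), and of 5 skeletal muscle markers 4 were tested and none passed.

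Transcripts of the proteins that anchor keratin filaments were also compared, beside 28.4% of all genes higher and 29.8% lower in females. The limit given for the marker counts holds here too, and Dsp had a male median of 0.0299 TPM. Of 18 desmosome genes 15 were tested, of which 8 rose, 2 fell and 5 did not pass, with a median log2FC of 1.69. Dsp, which ties keratin filaments to the desmosome, had a log2FC of 6.47 ± 0.38 (edgeR adjusted p = 1.01e-22), Perp 3.88 ± 0.22 (edgeR adjusted p = 1.83e-23) and the plakophilin Pkp1 3.83 ± 0.29 (edgeR adjusted p = 3.97e-18). The plakophilin Pkp2 fell, with -0.65 ± 0.13 (edgeR adjusted p = 2.62e-05), as did Cdsn with -0.43 ± 0.13 (edgeR adjusted p = 0.00421). Of 11 hemidesmosome and basement membrane genes, a list that includes Krt5 and Krt14 themselves, 8 rose and 2 fell. The collagen Col17a1 rose with 3.82 ± 0.20 (edgeR adjusted p = 1.54e-24), and the linker Dst fell with -0.44 ± 0.08 (edgeR adjusted p = 4.62e-06).

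Other intermediate filament genes were called at shares near those of all genes. Of 16 genes 12 were tested, of which 2 rose, 4 fell and 6 did not pass, with a median log2FC of -0.09. Among all genes tested 28.4% were higher and 29.8% lower in females, so counts from 12 genes show no particular direction. The nuclear lamin Lmnb1 rose with 0.38 ± 0.14 (edgeR adjusted p = 0.0154). Vim, the vimentin gene of mesenchymal cells and adipocytes, fell with -0.66 ± 0.08 (edgeR adjusted p = 5.2e-11), from a median of 1673 TPM in males to 1141 TPM in females. Nes fell with -0.67 ± 0.10 (edgeR adjusted p = 2.8e-08).

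The sex difference of the keratin genes was next compared between the 26 BXD strains and the 33 other strains with both sexes. None of the 16 keratin genes, and 0% of the 16765 genes tested, passed the interaction test (edgeR, adjusted p), and 314 genes but no keratin gene had an unadjusted p under 0.05. The largest difference among keratin genes was that of Krt15, with 1.21 ± 0.85 on the log2 scale (BXD minus other strains; edgeR adjusted p = 0.9999). For Krt8 it was 0.45 ± 0.87 and for Krt5 0.88 ± 0.94, so differences of that size could not be told from 0. For Krt79 it was 0.01 ± 0.26, with a log2FC of -1.46 in BXD and -1.47 in the other strains. The classical parents showed the same order. C57BL/6J had 148 TPM of Krt8 in the female and 0 in the male library, DBA/2J 85.9 and 0.0389, and A/J 128.3 and 0.718.

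Families were compared within each sex by a test over BXD, AXB/BXA and classical inbred strains, with BXH and CXB described by their values. Of 18 keratin genes tested in female libraries 4 were called, Krt222, Krt78, Krt10 and Krt20, against 12% of all genes. Of 12 tested in male libraries 5 were called, Krt19, Krt7, Krt18, Krt5 and Krt222, against 7.07% of all genes. Krt222 was the one gene called in both.

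Krt222 was lower in classical inbred strains than in both recombinant families. In females the medians were 1.81 TPM in classical inbred strains (0.850 to 4.03), 2.95 in BXD (0.867 to 6.73) and 2.99 in AXB/BXA (2.09 to 7.82), with log2 differences from classical inbred strains of 0.67 and 0.78 (edgeR adjusted p = 0.0028). In males the medians were 1.82, 3.42 and 3.22 TPM, with log2 differences of 0.61 and 0.54 (edgeR adjusted p = 0.0113). The ranges overlapped in both sexes. Within the classical inbred strains C57BL/6J held the highest Krt222 level in both sexes, 4.03 TPM in the female and 5.44 TPM in the male library. DBA/2J had 3.01 and 3.70 TPM. The CXB medians were 1.75 and 1.59 TPM, near those of the classical inbred strains, among which BALB/cJ had 1.51 and 1.13 TPM. Inheritance of the Krt222 level from parent strains was not tested. The BXH medians were 2.97 and 3.15 TPM.

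Krt78 differed between the families in females, with medians of 0.232 TPM in classical inbred strains, 0.176 in BXD and 0.514 in AXB/BXA (log2 differences of -1.01 and 0.52, edgeR adjusted p = 0.0043). In males the medians were 0.109, 0.0905 and 0.332 TPM and the test missed the threshold (edgeR adjusted p = 0.0518). The AXB/BXA values include AXB19, AXB19a and AXB19b, with 0.688, 1.11 and 0.843 TPM in females. Their male values were 0.426, 0.427 and 0.332 TPM. If these are related lines they are not independent replicates, which the test did not model. A/J, the parent that AXB/BXA does not share with BXD, had 1.07 TPM in the female and 0.574 TPM in the male library, the latter the highest male value. C57BL/6J had 0.246 and 0 TPM.

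The call of Krt10 in females was lost without the LP/J and PL/J libraries. The median of Krt10 was 6.91 TPM in classical inbred strains, 5.92 in BXD and 6.12 in AXB/BXA, and the LP/J female library reached 40.2 TPM. Its log2 differences of -0.79 and -1.07 (edgeR adjusted p = 0.0186) were -0.83 and -1.06 without the libraries against their label (edgeR adjusted p = 0.0216) and became -0.05 and -0.28 without LP/J and PL/J as well (edgeR adjusted p = 0.291). In the same LP/J library Krt1 was 22.1 TPM, Krt2 3.17 TPM, Krt77 1.60 TPM, the cornified envelope gene Lor 4.56 TPM and Flg 29.4 TPM, and this library had the highest summed level of the epidermal markers. Krt20 had medians of 0.579, 0.441 and 0.473 TPM, with C57BLKS/J female at 8.86 TPM. Its log2 differences of -1.12 and -1.24 (edgeR adjusted p = 0.0343) were -1.09 and -1.24 without the libraries against their label, where the test missed the threshold (edgeR adjusted p = 0.0561).

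For the luminal keratins Krt8, Krt18 and Krt19 in females, the family call depended on the libraries used. The median of Krt8 was 125 TPM in classical inbred strains (25.5 to 227), 58.3 in BXD (0.0302 to 186) and 49 in AXB/BXA (22.8 to 113.5), and that of Krt19 was 281, 138.3 and 143 TPM. With all libraries the adjusted p was 0.108 for Krt8, 0.0848 for Krt19 and 0.101 for Krt18 (edgeR). Without BXD69/RwwJ female alone it was 0.0429 for Krt8, 0.0397 for Krt19 and 0.0412 for Krt18, and Krt20 kept its call (0.04). Without the libraries against their label it was 0.0419, 0.0467 and 0.0541. Without LP/J and PL/J as well it was 0.0207, 0.0196 and 0.0286, with log2 differences for Krt8 of -0.68 in BXD and -0.97 in AXB/BXA. Krt7 and Krt23 passed in none of these fits, with an adjusted p of at least 0.093 and 0.153 (edgeR). The 2 BXH females had 155 and 216 TPM of Krt8, and the 3 CXB females 18.7 to 140 TPM.

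In male libraries the calls of Krt19, Krt7, Krt18 and Krt5 rested on NZW/LacJ and PL/J, both classical inbred. The family medians of Krt19 were 1.26 TPM in classical inbred strains, 0.923 in BXD and 1.80 in AXB/BXA. Without NZW/LacJ alone the 4 genes remained called (edgeR adjusted p from 0.013 for Krt19 to 0.0416 for Krt5). Without both libraries the adjusted p was 0.697 for Krt19, 0.434 for Krt7, 0.418 for Krt18 and 0.663 for Krt5, and Krt222 remained called (edgeR adjusted p = 0.0299). In PL/J male the Y-linked genes were at 164 CPM, the lowest sum of the 73 male libraries (median 315) and above the 65 female libraries, while Krt8 was 41 TPM and Epcam 46.4 TPM. Its female counterpart had 33.5 TPM of Krt8.

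**Figure D3:**
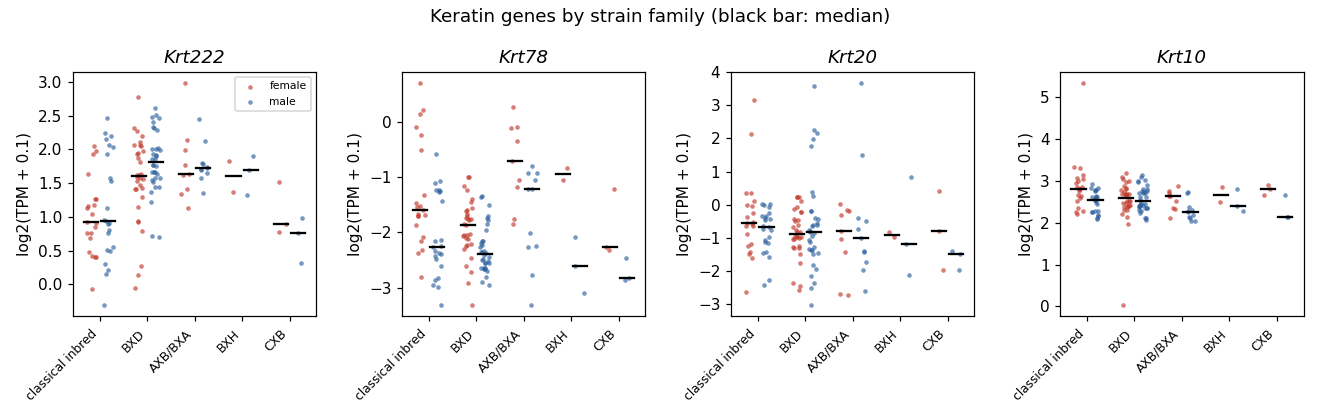
Level of Krt222, Krt78, Krt20 and Krt10 as log2(TPM + 0.1) by strain family, 1 point per library (female red, male blue), with the median as a black bar. Krt222 is lower in classical inbred and CXB strains than in BXD and AXB/BXA in both sexes, and single libraries stand above the rest for Krt20 and Krt10, among them LP/J female at 40.2 TPM of Krt10.

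The level in the female library of a strain was compared with that in its male library over the 59 strains (log2 CPM, 16 genes, p-values from permutation tests with 100000 resamples). Strains kept their order for Krt222 (r = 0.62, rho = 0.52) and Krt79 (r = 0.61, rho = 0.60), each with the smallest permutation p that can be given for r, 1e-05, and an adjusted p of 8e-05. Leaving out the 2 strains farthest from the female median gave r = 0.61 for Krt222 and r = 0.54 for Krt79. Within BXD strains r was 0.40 for Krt222 and 0.74 for Krt79, and within the other strains 0.62 and 0.51. BXD60/RwwJ had the highest Krt79 level of both sexes, 50.3 TPM in the female and 87.6 TPM in the male library, and CBA/J the second highest of both, 31.6 and 69.3 TPM.

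Krt78 (r = 0.48, permutation p adjusted 0.000693) and Krt10 (r = 0.43, permutation p adjusted 0.00248) were also correlated between the sexes, but for Krt78 r was 0.08 within BXD strains and 0.55 within the others. For Krt10 r was 0.48 and 0.40, and its call was lost on log2(TPM + 1) (r = 0.23, permutation p adjusted 0.253) and on log2(TPM + 0.1) (r = 0.23, permutation p adjusted 0.262). Krt80 missed the threshold for r (0.30, permutation p adjusted 0.063) but not for rho (0.32, permutation p adjusted 0.0373), and passed for r without NZW/LacJ (0.33, permutation p adjusted 0.0399), which made 5 genes in place of 4. Krt20 passed for rho (0.35, permutation p adjusted 0.0236) but not for r (0.21, permutation p adjusted 0.28). For the luminal and basal keratins with a sex difference r lay between -0.13 for Krt18 and 0.12 for Krt23, and none had an adjusted permutation p under 0.05. Of the 59 male libraries, 58 were over the CPM minimum of the filter for Krt7 and 52 for Krt19, whose r was -0.06 and -0.05. For the other genes of this group at most 26 were, which limits what their comparison can show.

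**Figure D4:**
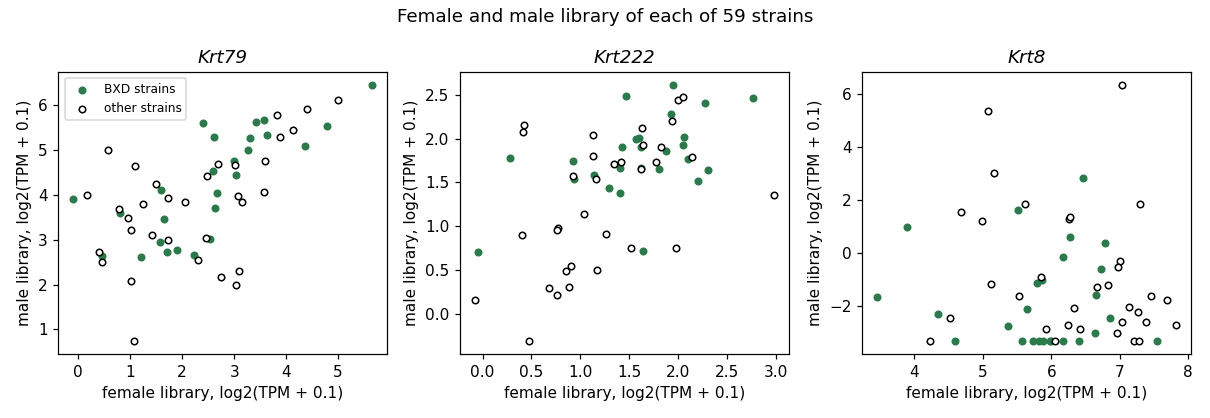
Level in the male library against the level in the female library of each of 59 strains, as log2(TPM + 0.1), for Krt79, Krt222 and Krt8, with BXD strains in green and other strains as open circles. Strains with a high female level of Krt79 or Krt222 tend to have a high male level, and no such order is seen for Krt8.

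Within a sex, partner keratins rose and fell together across libraries. The 2 genes of a pair are measured in the same library, so they share its depth and composition. In females r was 0.98 for Krt8 with Krt18 (rho = 0.95) and 0.95 for Krt5 with Krt14 (rho = 0.93), each with a permutation p of 1e-05, the smallest that can be given, and an adjusted p of 1.5e-05 over 18 relations. Without the 2 libraries farthest from the median r was 0.95 and 0.94. Luminal and basal keratins were also correlated in females, with r = 0.91 for Krt8 with Krt5 (rho = 0.80), which was 0.83 without the 2 farthest libraries, 0.95 within BXD and 0.83 within the other strains. Without the libraries against their label, r of this pair within BXD was 0.84. Krt8 followed the epithelial adhesion gene Epcam (r = 0.95, rho = 0.86), and Krt5 followed Trp63, the basal cell transcription factor (r = 0.76, rho = 0.82).

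For skin keratins r depended on a few libraries or on the scale. In females r was 0.79 for Krt1 with Krt10 but 0.26 without the 2 libraries farthest from the median of Krt1, and r was 0.75 for Krt10 with Lor but 0.26 without 2 libraries, so the size of r rests on those libraries. The rank correlations passed the threshold, with rho = 0.38 (permutation p adjusted 0.00273) and rho = 0.28 (permutation p adjusted 0.026). Within BXD strains r was 0.36 for Krt1 with Krt10 and -0.06 for Krt10 with Lor, and within the other strains 0.89 and 0.91. Without the libraries against their label, r within BXD strains was 0.02 for Krt1 with Krt10 and 0.01 for Krt10 with Lor. For Krt14 with Krt10 in females r was 0.14 (permutation p adjusted 0.226) and rho 0.23 (permutation p adjusted 0.0759), but r passed on log2(TPM + 1) (0.39, permutation p adjusted 0.00294) and on log2(TPM + 0.1) (0.37, permutation p adjusted 0.0174). In males, where NZW/LacJ and PL/J stand apart, r without the 2 farthest libraries was 0.86 for Krt8 with Krt18, 0.88 for Krt5 with Krt14, 0.45 for Krt7 with Krt19 and 0.26 for Krt5 with Trp63, and Krt1 with Krt10 had r = -0.05.

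**Figure D5:**
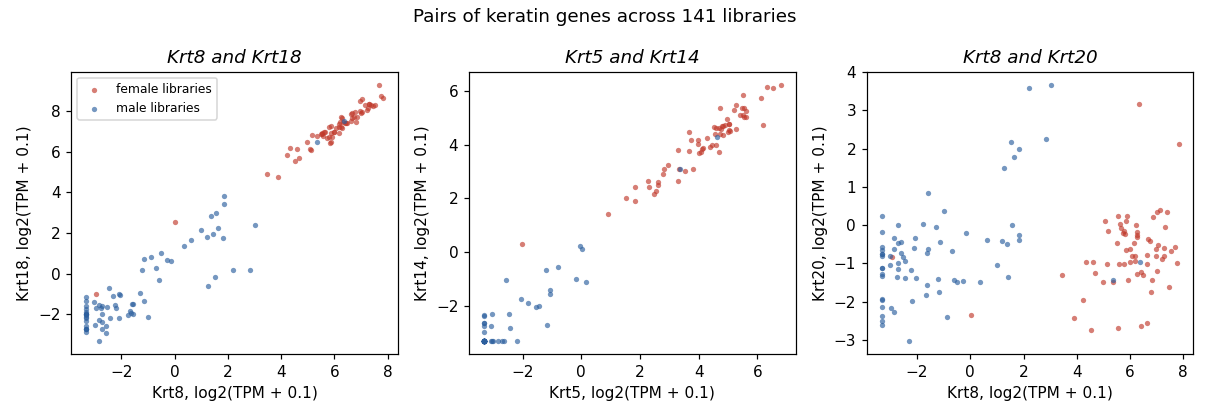
Levels as log2(TPM + 0.1) of Krt18 against Krt8, Krt14 against Krt5 and Krt20 against Krt8 in 67 female (red) and 74 male (blue) libraries, 1 point per library. The partner pairs lie along a line over both sexes, and Krt20 shows no common line with Krt8.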

How the data were processed

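RNA-seq of iWAT was measured in 141 libraries, grouped by the sex and strain in the labels. The authors quantified the reads with kallisto (0.46.1 per the labels) against the Ensembl release 97 transcriptome of GRCm38 (mm10 in the labels) and obtained gene-level values through tximport. Of the 2 deposited tables, that of estimated counts holds values without normalization, which were rounded here, and that of TPM holds values the authors corrected for transcript length and library total. Symbols and coordinates came from GENCODE M21, promoters from RefSeq (GRCm38.p6).

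Genes were kept by filterByExpr (minimum count 10), scaled by TMM and tested with edgeR 4.0.16 (R 4.3.3) by the quasi-likelihood test, with strain and sex as terms in the 59 paired strains, as in the model of the study, or with family within a sex. Benjamini-Hochberg adjustment covered every gene of a fit, and genes with an adjusted p below 0.05 were called. The SE was derived from the log2FC and its F statistic. Correlations used TMM-scaled log2 CPM with a prior count of 2 and two-sided permutation tests in Python 3.11.15. In the sex and interaction fits, p-values were judged against the spread of the sex difference from strain to strain. In the family fits they were judged against the spread between strains within a sex. In simulated counts for the sex comparison (16729 genes), 97 of 99 genes changed by 0.5 and 99 of 99 changed by 1 on the log2 scale were called, with 5 unchanged genes. The simulation used the same settings of spread for every gene. In the data the SD of log2 CPM among male libraries was 0.305 for Krt10, 1.40 for Krt20 and 2.57 for Krt8. The simulated rates therefore need not hold for the keratin genes.

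Every tested keratin gene is named, other keratin genes by their 3 highest, and up to 3 called genes per direction from each list. The keratin genes, their classes and the lists were chosen with earlier results of these data known. Alternatives were RLE size factors, library totals, DESeq2 1.42.0, limma-voom and limma 3.58.1 on log2(TPM + 1) and log2(TPM + 0.1), other filters, no strain term, subsets of strains, and fits without libraries against their label. Fits without LP/J and PL/J, and without BXD69/RwwJ female alone, were chosen after seeing the data. Labels give no batch, so none was modelled.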

Additional observations from a re-analysis of the deposited data

Results flagged for a closer look

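Among the 9 AXB/BXA female libraries, the only family and sex with 4 to 10 libraries, 3 of the 16 tested keratin genes had a highest library far from the others by Dixon's criterion. For normally distributed values chance meets it in about 1 of 20 groups, but it was applied here to untransformed TPM. The rate over all genes in these libraries was not computed, so 3 of 16 cannot be read as more than chance. AXB19, AXB19a and AXB19b, whose names point to a shared origin, are among the 9. Krt5 reached 72.3 TPM in AXB13/PgnJ, against 26.2 TPM in the next library. Krt15 reached 5.48 TPM in BXA8/PgnJ, against 1.05 TPM in the next. Krt222 reached 7.82 TPM in AXB19b/PgnJ, against 4.30 TPM in the next. The 3 highest values came from different strains.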

How the results depend on the processing

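With 11 keratin genes higher and 1 lower in females as reported, 26 were higher without a filter and 2 with at least 10 counts in every library, where fewer keratin genes could be tested. DESeq2 called 3 lower, as did the fits without NZW/LacJ and without NZW/LacJ and PL/J, Krt36 and Krt222 being added. The fit with no replicate block, that is without the strain term that pairs the libraries, called 11 higher and 1 lower, with 8190 genes called in all against 9747, and with smaller fold changes of the luminal and basal keratins (log2FC 4.13 to 5.35). Krt10 missed the threshold in BXD strains only (log2FC 0.14, adjusted p = 0.108). The uncalled Krt20 and Krt80 changed sign. Krt20 was -0.075 with limma-voom, -0.21 with no replicate block and -0.57 with no replicate block in all libraries. Krt80 was -0.0072 with no filter, -0.013 without NZW/LacJ, -0.014 also without PL/J and -0.13 in strains other than BXD. The interaction kept 0 keratin genes in every alternative run. Family calls were 13 in females and 14 in males with no filter (3717 and 2282 genes in all, against 2189 and 1247), 1 and 3 for BXD against all other strains (1852 and 769 genes), and 2 and 1 with limma-voom (742 and 892 genes). Without the libraries against their label, LP/J and PL/J, 1 was called in males, without BXD69/RwwJ female alone, an alternative chosen after seeing the data, 7 were called in females, and without the libraries against their label 1431 genes were called in females. With library totals the female family calls above and below classical inbred strains in BXD were 806 and 916, against 1309 and 880. Correlations between the sexes changed sign, all uncalled, for Krt7 (0.045 and 0.093) and Krt19 (0.048 and 0.054) on log2(TPM + 1) and log2(TPM + 0.1), for Krt17 on log2(TPM + 0.1) (0.0032) and for Krt15 without NZW/LacJ (-0.042), and that of Krt10 missed the threshold on both TPM scales (0.23 and 0.23). Between genes, Krt14 with Krt10 in males was -0.033 and -0.042 on the TPM scales, and in females 0.39 and 0.37, past the threshold. The cause was not tested. At 0.0992 CPM for 3 counts, basal keratins in most male libraries are at or under the floor, so their fold changes are imprecise.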

Other observations

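The male libraries with the highest Krt20 level were not NZW/LacJ and PL/J, the highest in Krt8. This was noticed after the values were seen and is given with no test. AXB5/PgnJ male had 12.7 TPM of Krt20, 8.09 of Krt8, 5.21 of Krt18, 13.3 of Epcam and 0.267 of Krt5. BXD11/TyJ male had 11.9 TPM of Krt20, 4.47 of Krt8, 1.03 of Krt18, 6.11 of Epcam and 0.0516 of Krt5. BXD55/RwwJ male had 4.69 TPM of Krt20, 7.05 of Krt8 and 8.82 of Krt19. NZW/LacJ male had 0.414 TPM of Krt20 beside 82.1 of Krt8. In the 7 male libraries with Krt20 above 2 TPM, a limit set after seeing the values, Krt8 lay between 2.32 and 8.09 TPM, against a male median of 0.135 TPM, and Krt5 lay between 0 and 1.02 TPM. The next 5 libraries by Krt20, from 0.911 to 1.70 TPM, had 0 to 0.401 TPM of Krt8. In the AXB5/PgnJ female library Krt20 was 0.797 TPM, so the high level was not shared by both libraries of that strain.

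Among female libraries KK/HlJ had the highest level of Krt8 (227 TPM, followed by 216), Krt5 (111.4 TPM, followed by 92.2), Krt14 (75.1 TPM, followed by 70.3) and Krt23 (21.3 TPM, followed by 19.8). The same library had 2163 TPM of Wfdc18 and 1102 TPM of Csn3, the kappa casein gene. I/LnJ female had the highest Krt18 (631 TPM) and Krt7 (86.5 TPM), with 179 TPM of Wfdc18 and 815 TPM of Csn3.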
